A study of Mus musculus with 12 samples.

Results

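The mitochondrial ribosomal proteins were taken as every gene whose symbol starts with Mrpl or Mrps and a digit. This rule found 78 of the 16821 genes listed, of which 49 were named Mrpl and 29 Mrps. The data were liver RNA-seq of 12 adult male C57BL/6J mice, an inbred strain, bought at 8 weeks of age, with 1 library per mouse. For 6 weeks the 6 Exe mice were trained by moderate treadmill running, whereas the 6 Con mice stayed sedentary in the same room. All livers were perfused with saline and excised within 24 h of the last run, so the libraries hold RNA of whole liver tissue.

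Mitochondria carry their own ribosome, which makes the few respiratory chain subunits that are encoded by mitochondrial DNA. Its RNAs come from that DNA, whereas all of its proteins are encoded in the nucleus, made in the cytosol and imported. Many of these proteins have a counterpart in the bacterial ribosome and others are found only in mitochondria. The large subunit joins amino acids and passes the new chain to the inner membrane, and the small subunit binds the mRNA and reads its codons. Promoters of such nuclear genes are known for sites of NRF1, of ETS factors such as GABP, and of YY1.

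RefSeq start sites of GRCm38.p6 were at hand for 69 of the 78 members, and not for Mrpl4, Mrpl13, Mrpl15, Mrpl19, Mrpl38, Mrpl54, Mrps28, Mrps34 and Mrps35. Windows of 300 bases, from 250 before to 50 after each start, were searched on both strands for an NRF1 core (GCGCATGC), an ETS site (CCGGAAG) and a YY1 core (AAGATGGC). The NRF1 core can overlap its own reverse complement. Positions count from 0 at the annotated start. The following 5 stretches are shown because they hold each kind of match, or the stretch between a member and the oppositely oriented gene beside it. Each is in the direction of the member named and ends within 30 bases after its start, and matches are in capitals.
Mrpl33: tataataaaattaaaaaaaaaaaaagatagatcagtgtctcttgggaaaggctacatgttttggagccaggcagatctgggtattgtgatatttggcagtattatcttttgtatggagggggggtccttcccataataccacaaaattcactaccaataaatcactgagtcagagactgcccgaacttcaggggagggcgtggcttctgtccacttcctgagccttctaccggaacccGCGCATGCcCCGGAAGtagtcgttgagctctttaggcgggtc
Mrps18b: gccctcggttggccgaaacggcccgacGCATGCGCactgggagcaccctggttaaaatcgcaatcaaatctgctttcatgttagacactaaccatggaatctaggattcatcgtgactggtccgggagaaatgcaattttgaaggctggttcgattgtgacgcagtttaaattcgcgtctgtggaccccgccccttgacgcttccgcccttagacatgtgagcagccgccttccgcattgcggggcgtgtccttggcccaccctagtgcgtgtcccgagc
Mrps27: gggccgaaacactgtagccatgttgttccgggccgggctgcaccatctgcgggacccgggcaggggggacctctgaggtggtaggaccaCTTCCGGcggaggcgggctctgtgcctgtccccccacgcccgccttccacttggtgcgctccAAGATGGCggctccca
Mrps12: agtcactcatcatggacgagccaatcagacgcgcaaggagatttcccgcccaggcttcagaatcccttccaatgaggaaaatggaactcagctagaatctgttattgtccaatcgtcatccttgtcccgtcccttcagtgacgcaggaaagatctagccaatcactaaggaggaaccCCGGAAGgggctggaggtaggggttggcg
Mrpl46: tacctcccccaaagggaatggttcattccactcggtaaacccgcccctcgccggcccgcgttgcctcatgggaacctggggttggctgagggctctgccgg

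The stretch of Mrpl33, a protein of the large subunit with a bacterial counterpart, was chr5:31613701-31613980 on the plus strand. Its NRF1 core ran from -12 to -5 and its ETS site from -3 to 3, across the annotated start. That of Mrps18b, a small-subunit protein, was chr17:35916411-35916690 on the minus strand, with an NRF1 core at -223. A further NRF1 core from 28 to 35 and an ETS site from 43 to 49 lay beyond the stretch shown. The stretch between Mrps27 and Ptcd2, another gene for a protein of mitochondrial RNA handling, was chr13:99344649-99344815 on the plus strand, with an ETS site from -48 to -42 and a YY1 core from 14 to 21. The 2 starts were 108 bases apart. Mrps12, a protein of the decoding site, and Sars2, the mitochondrial seryl-tRNA synthetase, had starts 147 bases apart on chr7:28741792-28741997, shown on the minus strand, with an ETS site from 1 to 7. Mrpl46 and Mrps11, which encode proteins of both subunits, had starts 42 bases apart, and the stretch between them, chr7:78783060-78783160 on the minus strand, held no match.

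At least 1 of the 3 motifs was found in 38 of the 69 members (55.1%), compared with 30.1% of 8286 tested genes with a window. The ETS site was in 26 members (37.7%, against 21.4%), the YY1 core in 12 (17.4%, against 5.67%) and the NRF1 core in 8 (11.6%, against 6.22%). Over all 27025 genes of the promoter table the shares were 9.93% for the ETS site, 3.19% for the YY1 core and 3.05% for the NRF1 core. Matches lay mostly close to the start, from 60 bases before it to the end of the window, in 22 of 26 members for ETS (84.6%), 9 of 12 for YY1 (75%) and 6 of 8 for NRF1 (75%). Tested genes with a match also had it there in most cases, 69.8% for ETS, 65.5% for YY1 and 58.8% for NRF1. The YY1 core lay after the start in 8 of its 12 members (66.7%), and in 57.2% of the tested genes that had it. Mrpl32 held the most NRF1 cores, including an overlapping pair that starts at -87 and -85. Mrpl52, Mrpl43, Mrpl53, Mrpl58 and Mrps16 each held 2 ETS sites. These are matches of letters and no measure of binding.

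**Figure D1:**
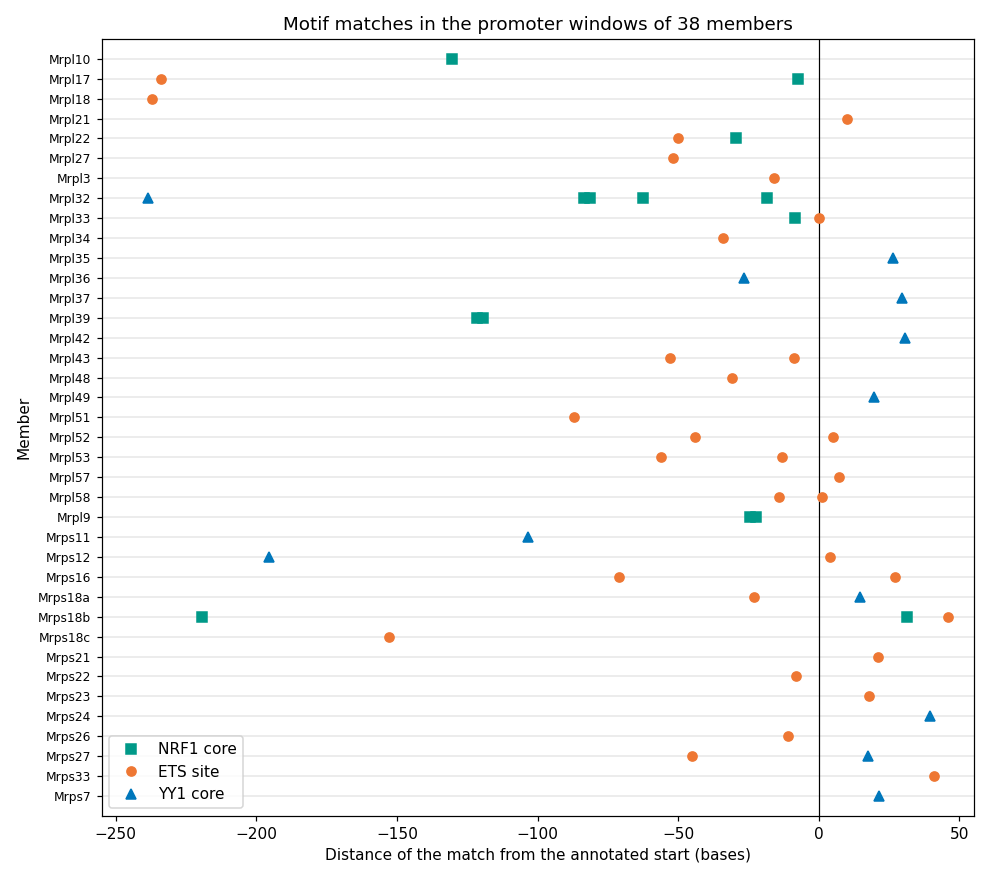
Position of every motif match in the promoter windows of the 38 members that held one, in bases from the annotated start (x axis), with 1 row per member. Squares are NRF1 cores, circles ETS sites and triangles YY1 cores, drawn at their centres. Most symbols lie close to the start, and 8 of the 12 members with a YY1 core have it after the start.

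Another gene started within 1000 bases in the opposite direction beside 26 of the 69 members (37.7%), compared with 20.2% of the tested genes. The distances ran from 8 to 935 bases with a median of 129.5, and 21 were at most 250. Several neighbours also serve mitochondria, such as Twnk beside Mrpl43 (116 bases), the helicase of mitochondrial DNA, and Ndufb5 beside Mrpl47 (308 bases), a subunit of complex I. Levels within a pair were mostly unequal, and in 19 of 24 cases with a level for both the neighbour was the lower gene. Members had a median of 28.5 FPKM and all genes tested 7.81, and the like share for other genes was not computed. Mrpl46 and Mrps11 are counted in both directions. Mrps12 had a mean FPKM of 51.7 and Sars2 6.997, and Mrpl21 had 29.2 and its neighbour Ighmbp2 1.64. In the other direction, Mrpl49 had 18.8 and Fau 559.4, Mrpl47 13.5 and Ndufb5 107.2, Mrpl32 24.4 and the proteasome gene Psma2 89.7, and Mrpl41 8.36 and Pnpla7 29.4. Levels are given in FPKM, a measure of fragments scaled by transcript length and by library size, which allow genes to be compared per length. Mrpl46 and Mrps11 lay close together at 18.2 and 16.7 FPKM.

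All 78 members were expressed in every mouse. Their mean FPKM over the 12 mice ran from 1.68 to 124.1, a 73.8-fold range, with a median of 28.5, compared with a median of 7.81 over the 10241 genes tested. A mean of at least 10 FPKM was reached by 71 members, of at least 50 by 17 and of at least 100 by 4. The highest were Mrpl52 (124.1), Mrps21 (119.0), Mrpl14 (108.8) and Mrpl12 (105.9), which binds factors at the stalk and has also been linked to mitochondrial RNA polymerase. The lowest were Mrps25 (1.68), Mrpl19 (2.39), Mrpl35 (4.42) and Mrpl17 (5.71). Among the 77 pairs of neighbours in this order, 70 differed by less than their spread over mice. The exceptions were the step below Mrpl12 to 86.2 FPKM, the step below Mrpl30 at 84.6 FPKM, the step between Mrpl3 (12.6) and Mrpl45 (10.1), and each step from Mrpl11 (8.19) down to Mrps25.

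**Figure D2:**
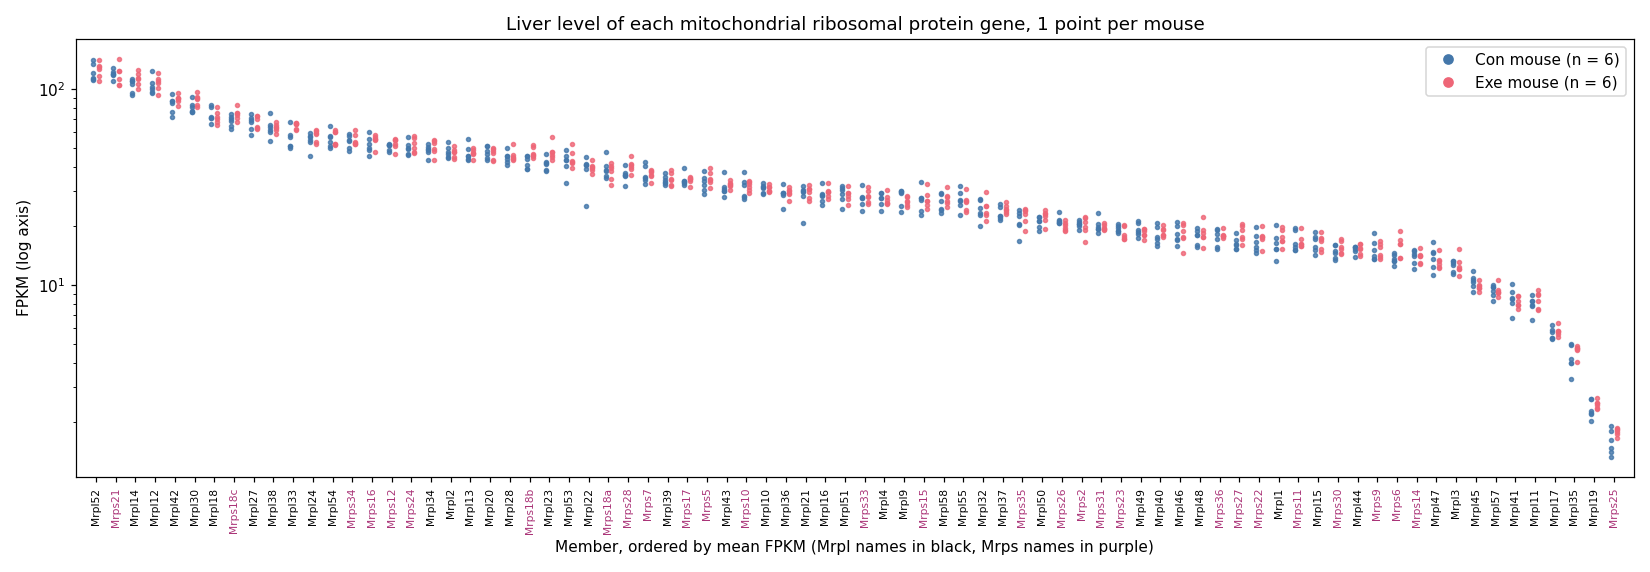
FPKM of each of the 78 members (log axis), 1 point per mouse, Con in blue and Exe in red, ordered by mean FPKM. The means fall gradually from 124.1 for Mrpl52 to 10.1 for Mrpl45, then steeply to 1.68 for Mrps25. The ranges of the 2 groups overlap for every member.

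Members were grouped by role. The 30 large-subunit proteins with a bacterial counterpart had a median of mean FPKM of 30.2, and the 21 large-subunit proteins specific to mitochondria 23.8. In the small subunit, the 16 with a bacterial counterpart had 34.2 and the 10 specific to mitochondria 20.3. The median was 32.9 for all 46 members with a bacterial counterpart and 21.6 for all 31 specific to mitochondria. The former was the higher in 12 of 12 mice. Single genes overlapped widely, with quartiles of 17.7 to 50.7 and of 17.7 to 36.6. The large subunit (51 members, 29.2) was above the small subunit (26 members, 27.7) in 10 of 12 mice. Each mouse measures the same genes again, so these counts do not replicate a difference between sets of genes, which was not tested. Mrps36, which is named as a small-subunit protein but is part of the oxoglutarate dehydrogenase complex, had 17.7 FPKM.

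Members of single sites of the ribosome had widely different levels. At the stalk and GTPase centre where elongation factors dock, the mean FPKM was 8.19 for Mrpl11, 31.0 for Mrpl10 and 105.9 for Mrpl12. Mrpl1, of a separate stalk, had 16.9. Around the peptidyl transferase centre, where peptide bonds form, Mrpl3 had 12.6, Mrpl16 29.2, Mrpl2 47.6 and Mrpl27 67.6. At the exit of the nascent chain, Mrpl45, which anchors the ribosome to the inner membrane, had 10.1 and Mrpl44 15.2, and Mrpl22, Mrpl23 and Mrpl24 had 39.3, 44.6 and 56.2. Mrpl58, which releases stalled chains, had 27.0. Along the mRNA path of the small subunit, Mrps2 had 20.2, Mrps5 34.1, Mrps7 36.7, Mrps24 51.1 and Mrps12 51.7. Of proteins specific to mitochondria, Mrps30 had 15.2, Mrps22 17.0, Mrpl37 23.8, Mrps34 54.6 and Mrpl38 63.5. The 3 paralogs of bacterial S18 kept an order, although only Mrps18c was grouped above with a bacterial counterpart. Mrps18c (71.6) was above Mrps18b (44.9) in 12 of 12 mice, and Mrps18b was above Mrps18a (38.6) in 11 of 12.

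The members varied little within a group. The paper used principal component analysis to leave out outliers, and how many mice were dropped, if any, is not given. The spread is that of the mice kept. The within-group coefficient of variation had a median of 8.28% and ran from 4.23% for Mrpl10 to 13.2% for Mrpl22, with Mrps15 next at 12.3%. The median was 11.6% over all genes tested and 11.2% over the other 8485 genes in the members' range of levels. That range holds most of the 10241 genes tested, so these genes were not matched to the members in level. The highest mouse was 1.13 to 1.79 times the lowest, with a median ratio of 1.32.

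Beside this small spread, the members moved together from mouse to mouse. In Con 4, 69 of the 78 members were above their own median over the 12 mice and 25 had their highest value. In Con 3, only 8 were above and 31 had their lowest value. The other Con mice had 45, 21, 28 and 32 members above. In the Exe mice 44, 64, 34, 37, 31 and 52 members were above, in the order of replicates 1 to 6. By this count the extremes were both sedentary mice, whereas the median FPKM of the members was highest in Exe 6 (30.8, against 30.2 in Con 4) and lowest in Con 3 (24.4). Over all genes tested, 61.6% were above their median in Con 4 and 66.4% in Exe 2, whereas Con 3 had 50.6%. The members made up 0.335% of all FPKM in Con 3, 0.382% in Con 4 and 0.399% in Exe 2, between 0.330% in Con 6, the lowest mouse, and that of Exe 2, the highest.

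**Figure D3:**
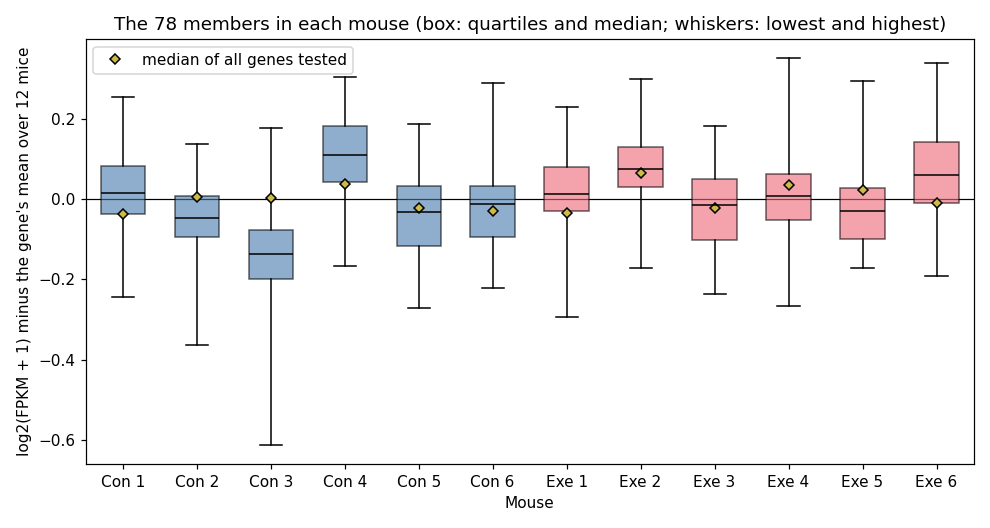
Deviation of each member from its own mean over the 12 mice, on the log2(FPKM + 1) scale (y axis), for each mouse (x axis). Boxes give quartiles and median, whiskers the lowest and highest member, and diamonds the median of all genes tested. The box of Con 3 lies lowest (median -0.14), that of Con 4 highest (0.11) and those of Exe 2 (0.08) and Exe 6 (0.06) next.

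Hepatocyte markers were present in every mouse, all 8 of 8, and their summed FPKM was 59196 to 77336 in Con and 68443 to 84927 in Exe. Of these 8 markers, 3 had an unadjusted p of at most 0.05 between the groups (limma), compared with 6.21% of all genes tested. Relative depth, read from the steps of low FPKM values, was 0.981 to 1.01 in all mice, by a reading that could miss larger differences. The summed FPKM of 9 acute-phase genes, which hepatocytes make in inflammation, was 9702 in Con 4 and 9797 in Exe 2, the lowest, 26312 in Con 3, and 46465 in Con 1 and 47268 in Exe 5, the highest. These extremes fell in both groups. Red blood cell markers (7 of 7 listed, 5 with a mean FPKM of at least 1, none at 0 in all mice) summed to 235 to 903 in Con, highest in Con 4, and to 400 to 1290 in Exe. Pancreatic acinar markers (9 of 9 listed, 1 with a mean of at least 1) summed to 22.5 in Exe 5 and to 0.60 to 5.23 in the other mice. Apart from a fit with acute-phase genes as covariate, given at the end, the part of these in the members' values was not tested. In bulk tissue, fewer cells of a type and less RNA per cell cannot be told apart.

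To ask whether 6 weeks of running changed these genes, Exe was compared with Con by limma on log2(FPKM + 1) over all 10241 genes that reached an FPKM of 1 in 6 or more mice. All 78 members passed this filter. No member differed at an adjusted p of 0.05, nor did any of the genes tested (0%), and the lowest adjusted p was 0.789 among members (Mrpl33) and 0.519 among all genes. By DESeq the paper did report genes that differed between these groups, so the 0% holds only for the fit used here. At an unadjusted p of at most 0.05 there were 7 members (8.97%), all higher in Exe, compared with 636 of all genes tested (6.21%). Of all genes, 437 (4.27%) were higher in Exe and 199 (1.94%) lower at that p. Among the other 8485 genes in the members' range of levels, 3.63% were higher and 1.99% lower. The members' 8.97% thus stands beside 4.27% and 3.63% in the same direction, and 0 members were lower. Members moved together across mice, so the 7 are not independent of each other, and at their adjusted p none of them is called changed.

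Among the members, 61 of 78 (78.2%) had a log2 fold change above 0, compared with 57.5% of all genes tested. The median log2 fold change was 0.037 for the members and 0.016 for all genes. Since members move together across mice, these counts are not independent, and single mice moved them. Without Con 3, 43 of 78 were above 0 with a median of 0.011, and without Con 4 it was 67 of 78 with a median of 0.059. After quantile normalization 46 of 78 were above 0, with a median of 0.010. In no member did the groups not overlap, against 24 genes with all Exe mice higher (0.234%) and 2 with all lower (0.0195%). The 95% intervals of the members ran from -0.24 to 0.37 on the log2 scale, or 0.845-fold to 1.30-fold, whose bounds lay a median of 0.145 from the estimate, and 71 of them held 0.

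**Figure D4:**
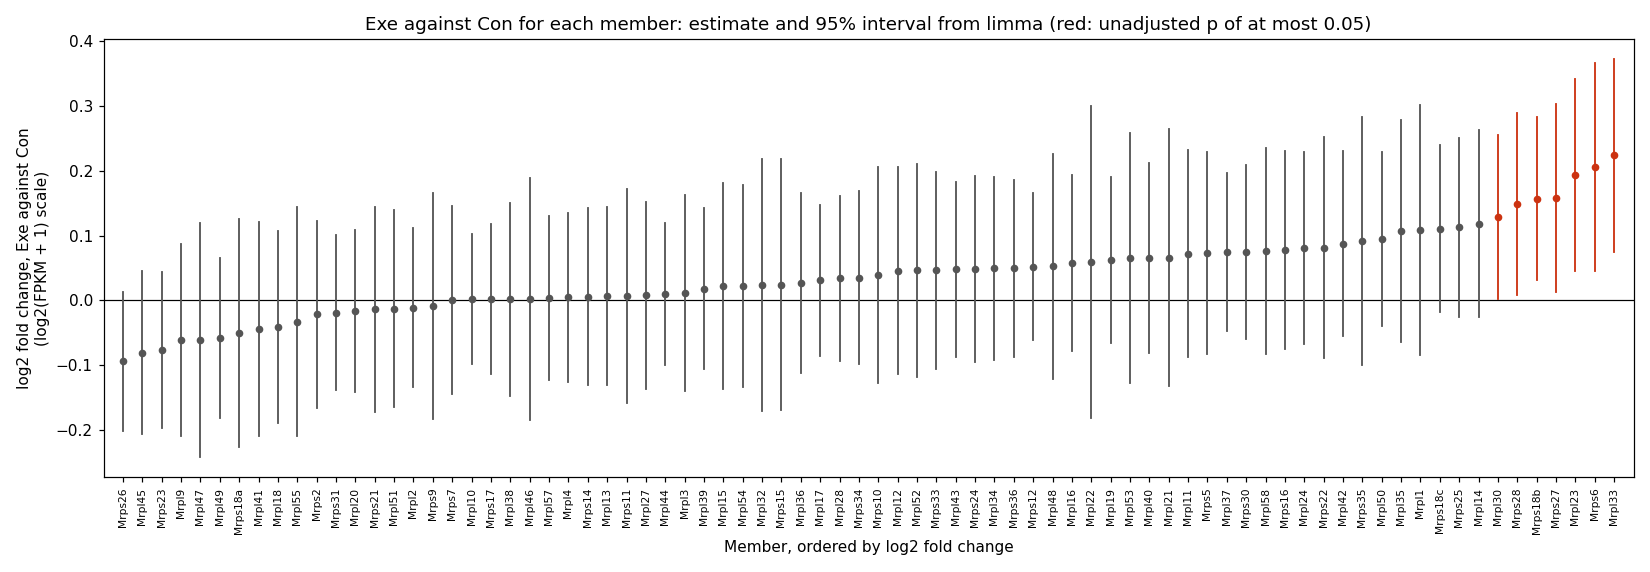
Log2 fold change of Exe against Con on the log2(FPKM + 1) scale for each of the 78 members, with 95% intervals from limma, ordered by size. Of the points, 61 lie above 0, and 7 members, in red, have an unadjusted p of at most 0.05, with an adjusted p of 0.789 to 0.799.

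The member with the lowest p was Mrpl33 (gene ID 66845), a small protein of the large subunit. Its FPKM had a lowest, median and highest value of 50.2, 54.2 and 67.5 in Con and of 61.8, 66.5 and 66.9 in Exe. All Exe mice lay above 5 of the 6 Con mice, but Con 1 was the highest of all 12. The log2 fold change was 0.22 (SE 0.069, 95% interval 0.08 to 0.37), with an unadjusted p of 0.0062 and an adjusted p of 0.789.

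Mrpl23 (gene ID 19935) lines the exit of the peptide tunnel. Its FPKM was 38.2, 41.8 and 46.6 in Con and 43.4, 46.8 and 56.9 in Exe, again as lowest, median and highest. Here 5 of 6 Con mice lay below every Exe mouse, Con 6 being the exception, and Exe 4 stood above the other Exe mice. The log2 fold change was 0.19 (SE 0.069), with an unadjusted p of 0.0146 and an adjusted p of 0.793.

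Mrps6 (gene ID 121022), a small-subunit protein with a bacterial counterpart, had 12.5, 13.4 and 14.6 FPKM in Con and 13.7, 16.1 and 18.8 in Exe. Both Exe 1 and Exe 5 lay within the range of Con, and the other 4 Exe mice exceeded it. The log2 fold change was 0.21 (SE 0.075), with an unadjusted p of 0.0156 and an adjusted p of 0.793.

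Mrps18b (gene ID 66973), the middle paralog in level, had 39.1, 42.5 and 45.7 FPKM in Con and 44.4, 46.2 and 51.6 in Exe. In Exe, 4 mice were above every Con mouse. The log2 fold change was 0.16 (SE 0.058), with an unadjusted p of 0.0179 and an adjusted p of 0.793. Its paralogs had a log2 fold change of 0.11 (Mrps18c, adjusted p = 0.849) and -0.05 (Mrps18a, adjusted p = 0.959).

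The other 3 were 2 proteins of the small subunit and 1 of the large subunit. Mrps27 (gene ID 218506), specific to mitochondria, had 15.2, 16.1 and 18.3 FPKM in Con and 16.0, 18.4 and 20.4 in Exe. Mrps28 (gene ID 66230) had 31.8, 36.4 and 41.0 in Con and 36.4, 40.5 and 45.5 in Exe. Mrpl30 (gene ID 107734) had 76.0, 79.1 and 90.6 in Con and 81.3, 89.2 and 96.7 in Exe. In these members only 2 or 3 Exe mice lay above every Con mouse. Their log2 fold changes were 0.16, 0.15 and 0.13 with unadjusted p of 0.0354, 0.0394 and 0.0479, and the adjusted p was 0.798 to 0.799. Without Con 2, Con 3 or Con 6 these 3 passed 0.05 no longer, which left 4 members each time. Of all genes, 5.77%, 4.92% and 5.19% passed then.

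**Figure D5:**
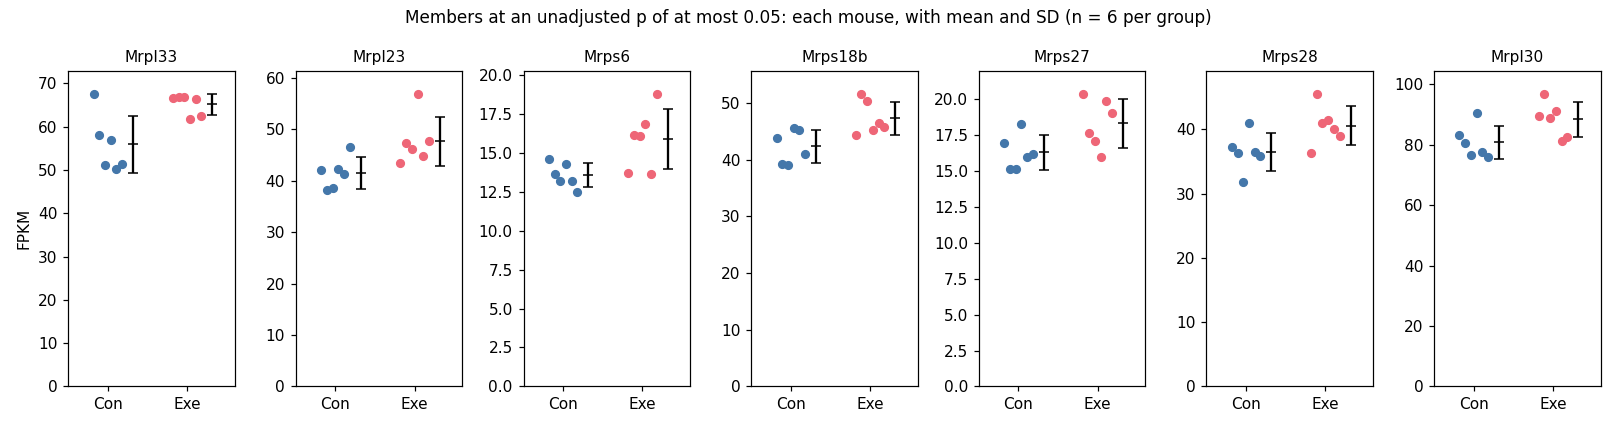
FPKM of the 7 members with an unadjusted p of at most 0.05, 1 panel each with its own axis from 0. Points are mice (Con blue, Exe red, in replicate order from left to right) and bars the mean and SD of 6 mice. The groups overlap in every panel, for Mrpl33 only by Con 1 at 67.5 FPKM.

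The mean FPKM ± SD (n = 6) of these members was 55.9 ± 6.58 in Con and 65.2 ± 2.36 in Exe for Mrpl33, and 41.5 ± 3.04 and 47.7 ± 4.77 for Mrpl23. It was 13.6 ± 0.783 and 15.9 ± 1.95 for Mrps6, and 42.4 ± 2.96 and 47.3 ± 2.92 for Mrps18b. The ratio of the means ran from 1.09 for Mrpl30 to 1.17 for Mrps6. Of the 7, 6 had a promoter window, and 3 of these 6 (Mrpl33, Mrps18b and Mrps27, shown above) held a motif, as did 35 of the other 63 (55.6%).

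By role, 3 of 30 large-subunit members with a bacterial counterpart (Mrpl33, Mrpl23 and Mrpl30) and none of the 21 specific to mitochondria had an unadjusted p of at most 0.05. In the small subunit it was 2 of 16 (Mrps6 and Mrps28) and 2 of 10 (Mrps18b and Mrps27). Over all genes tested it was 6.21%, with 4.27% higher in Exe, and the counts per role, 0 to 3, were not tested against these. The median log2 fold change was 0.032, 0.022, 0.031 and 0.064 in the same order. The differences between roles were not tested.

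The most abundant members were close between groups. Mrpl52 had 122.2 ± 12.5 FPKM in Con and 126.1 ± 11.1 in Exe, and Mrps21 had 119.3 ± 5.63 and 118.8 ± 14.4 (SD, n = 6). Mrpl12 had 104.2 ± 10.2 and 107.6 ± 9.42. Mrpl14 had a log2 fold change of 0.12 (95% interval -0.03 to 0.26, adjusted p = 0.851), with 4 Exe mice above every Con mouse. Mrps25, the lowest member, had 1.58 ± 0.229 in Con and 1.78 ± 0.078 in Exe, with an adjusted p of 0.851. Its low level and the pseudocount of 1 make the fitted log2 fold change of 0.11 smaller than the change of the FPKM themselves.

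Other sites of the ribosome gave intervals on both sides of 0. Mrps7 and Mrpl10 had log2 fold changes nearest to 0, with intervals of -0.15 to 0.15 and -0.10 to 0.10. For the stalks and GTPase centre, Mrpl1 had 0.11 (interval -0.08 to 0.30), Mrpl11 0.07 and Mrpl12 0.05. For the peptidyl transferase centre, Mrpl16 had 0.06, Mrpl3 0.01 and Mrpl2 -0.01. The membrane anchor Mrpl45 had -0.08 (interval -0.21 to 0.05), whereas Mrpl24 had 0.08. Mrpl22 had the widest interval of the tunnel proteins, -0.18 to 0.30, with a single low value of 25.1 FPKM in Con 3. The largest negative estimate was that of Mrps26, at -0.09 with an unadjusted p of 0.0816, which was 21.4 ± 1.11 FPKM in Con and 20.02 ± 0.988 in Exe (SD, 6 mice each, limma adjusted p = 0.848). Con 4 was far above the other Con mice for this gene (23.6 FPKM, against 20.6 to 21.4), and without it the estimate was -0.07 (adjusted p = 0.799). Without Exe 3 the estimate was -0.11, with an unadjusted p of 0.0475 and an adjusted p of 0.769 (limma). Mrps26 is named here because of its value.

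Genes that work with the mitochondrial ribosome were read from the same comparison, and none had an adjusted p of at most 0.05. Of 5 ribosomal proteins named otherwise, none had an unadjusted p of at most 0.05. Ptcd3, a small-subunit protein that binds RNA, came nearest with a log2 fold change of 0.13 and an unadjusted p of 0.110 (limma). Of 12 translation factors, 2 did. Guf1, an elongation factor of the LepA family, had a lowest, median and highest FPKM of 2.13, 2.45 and 2.99 in Con and of 2.75, 3.13 and 3.46 in Exe. Its log2 fold change was 0.24 (limma adjusted p = 0.756). Gfm1, which moves the ribosome along the mRNA, had 22.7, 24.7 and 27.5 in Con and 23.9, 28.6 and 34.6 in Exe, with 0.19 (adjusted p = 0.799). Both groups overlap for each gene.

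Of 23 tested genes for assembly of the ribosome and modification of its RNA, 1 had an unadjusted p of at most 0.05, Ngrn (0.21, adjusted p = 0.793). Of 22 tested genes for charging of mitochondrial tRNAs it was Gatb (0.16, adjusted p = 0.793), a subunit of the enzyme that makes glutaminyl-tRNA. Of 20 tested genes for transcription of mitochondrial DNA and handling of its RNA there were 3. Hsd17b10, a subunit of mitochondrial RNase P, had 0.17 and 157.8 to 191.6 FPKM in Con and 171.1 to 209.8 in Exe. Tefm, the elongation factor of mitochondrial transcription, had 0.18, and Mterf1a 0.25 at a mean of 1.46 FPKM. Their adjusted p was 0.793 to 0.799. The estimates of these 7 genes were all positive, and of all genes at that p 68.7% were higher in Exe. Over the 6 lists, 7 of 92 tested genes (7.61%) had an unadjusted p of at most 0.05, beside 6.21% of all genes. Of 10 tested regulators of nuclear genes for mitochondria none passed, and Sp1 came nearest (0.11, unadjusted p = 0.121, limma). Ppargc1a, the coactivator of such genes, was below the filter at a mean of 0.828 FPKM.

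The medians of the log2 fold changes of these lists were 0.070, 0.030, 0.054, 0.048, 0.043 and 0.035 in the order given, compared with 0.016 over all genes. The mRNAs of mitochondrial DNA itself were not analysed here. Among 22 tested genes that start opposite a member, Mrpl46 and Mrps11 are members themselves. Of the 22, 1 had an unadjusted p of at most 0.05, beside 6.21% of all genes. This was Fau, which encodes a protein of the cytosolic ribosome, 192 bases from Mrpl49, with 521.9 ± 37.9 FPKM in Con and 596.8 ± 57.4 in Exe (SD, 6 mice each, limma adjusted p = 0.793). Mrpl49 itself had a log2 fold change of -0.06.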

How the data were processed

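Liver total RNA was isolated with TRIzol and sequenced on a DNBseq platform as paired reads. The authors removed low-quality reads and aligned the rest to GRCm39 with HISAT. The processing notes of the labels also name Bowtie2 and mm10. The deposited values are FPKM per gene and mouse, with NCBI gene IDs. The tool that computed them, its annotation, its use of strand and any scaling between mice are not given in the sources used here, so reads of overlapping genes, divergent transcripts and processed pseudogenes cannot be told apart from those of a member. Read depth is unknown. Relative depth was read from the steps of low FPKM values of 117 genes (largest SE 0.0041). Genes entered only where every value above 0 lay near a whole multiple of the gene's lowest. Larger differences in depth could thus go unseen, and equal depth is not established.

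FPKM are not counts, so no count model was used. Genes that reached an FPKM of 1 in 6 or more of the 12 mice were fitted with limma 3.58.1 (R 4.3.3; lmFit, eBayes with trend, two-sided) on log2(FPKM + 1), with Benjamini-Hochberg adjustment over all genes tested. A fold change on this scale understates that of low genes. Tables and plots used Python 3.11.15, pandas 2.3.3, numpy 2.4.6 and matplotlib 3.10.9. The scripts were tested on simulated data. Neighbours in the order of levels were within their spread where the means differed by no more than the root of the summed squares of both SDs over 12 mice. Roles, pathway lists, markers and motifs came from general knowledge. The members and lists were chosen with earlier results of these data known.

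The genes named were a preset choice of members by site of the ribosome, the 4 highest and 4 lowest, every member with an unadjusted p of at most 0.05 or without overlap of groups, the 2 most variable, and of each pathway list those with such a p or else the lowest. Genes of opposite starts and Mrps26 were named after their values were seen. Each mouse is 1 library, and its group came from its label. The alternatives were other scalings, filters and pseudocounts, robust moderation, a block, a covariate and fewer mice. Proteome and metabolome data were not used here.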

Additional observations from a re-analysis of the deposited data

Results flagged for a closer look

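In 11 of 156 sets of 6 mice (each member in each group) 1 mouse stood far from the others by Dixon's ratio, its gap divided by the range of the group, against a critical value of 0.625. Chance alone gives about 1 in 20.

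In Con these were Con 3 and Con 4. Con 3 was low for Mrpl22 (ratio 0.707, at 25.1 FPKM with the other Con mice at 39.1 to 44.9) and for Mrpl21 (0.674, at 20.7 with the others at 28.4 to 32.1). Con 4 was high for Mrps26 (0.749, at 23.6 with the others at 20.6 to 21.4) and for Mrps17 (0.744, at 39.3 with the others at 32.3 to 34.1).

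In Exe, Exe 6 was high for Mrpl28 (0.708, at 52.1 FPKM with the other Exe mice at 43.6 to 46.1), for Mrps11 (0.653, at 19.4 with the others at 15.8 to 17.1) and for Mrpl57 (0.636, at 10.6 with the others at 8.7 to 9.38). Exe 4 was high for Mrpl23 (0.678, at 56.9 with the others at 43.4 to 47.7) and Exe 1 for Mrps36 (0.718, at 19.6 with the others at 17.4 to 17.98). Exe 5 was low for Mrps16 (0.681, at 47.7 with the others at 55.04 to 58.5) and Exe 3 for Mrpl35 (0.735, at 4.02 with the others at 4.63 to 4.85).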

How the results depend on the processing

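The members' intervals reached a median of 0.145 to either side of the estimate, which limits what 6 mice per group can show, and the counting error behind each value is not known. Of 1141 values under 21 alternatives, 1074 kept their direction and side of the threshold, or stayed within the spread or a set ratio. This rule was wide, since the median of the members, 0.037, could move by 0.064. No named gene had an adjusted p of at most 0.05, so for these only a change of sign or a pass of that threshold counted. The 1074 are thus no measure of how stable the estimates were. The count of members at an unadjusted p of at most 0.05 (limma) was 7 in the report, beside 6.21% of all genes. It was 4 under quantile normalization (6.03% of all genes) and 4 with the replicate number as a block (5.54%). After rescaling to TPM it was 9, with Mrpl14 and Mrps18c (7.46%). With the acute-phase genes as a covariate it was 5 (5.74%), and 53 of the 78 members had a log2 fold change above 0, with a median of 0.027. With 1 mouse left out the count was 4 to 8. It was lowest without Con 2, Con 3 or Con 6 (5.77%, 4.92% and 5.19% of all genes) and highest without Con 4 (7.56%). Replicate numbers did not pair the mice (correlations of -0.48 to 0.16, and only number 4 of the 6 correlated best with itself). Without Exe 3, 1 of the members counted, Mrps26, was lower in Exe. Mrpl33, Mrpl23 and Mrps6 stayed at that p under all 21 alternatives and Mrps18b under 20. The adjusted p of Mrpl33 ranged from 0.456 to 0.999. Without the filter on low values 1 gene of all tested had an adjusted p of at most 0.05. The number of members without overlap was 1 in place of 0 without Con 1 and Exe 5, and 0 to 1 with 1 mouse left out, being 1 without Con 1 or Con 6. The like share over all genes was not computed for these sets of mice. Genes higher in Exe made up 68.7% of all at an unadjusted p of at most 0.05, 56.8% after quantile normalization and 87.4% after rescaling to TPM, which moved the median of all genes from 0.016 to 0.049 and that of members to 0.075.

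The sign of 14 named members changed under at least 1 alternative. Under quantile normalization the log2 fold changes became -0.020 (Mrpl10), -0.011 (Mrpl12), -0.026 (Mrpl27), -0.00297 (Mrpl44), -0.023 (Mrps7), -0.031 (Mrpl38) and -0.0035 (Mrpl52). After rescaling to TPM they became 0.026 (Mrpl2), 0.015 (Mrps2) and 0.024 (Mrps21), and without Con 1 and Exe 5 0.001825 (Mrpl2), -0.018 (Mrpl44) and 0.025 (Mrps21). With acute-phase genes as a covariate they were -0.013 (Mrps7) and -0.028 (Mrpl38). With 1 mouse left out they ranged from -0.039 to 0.044 (Mrpl3), -0.014 to 0.030 (Mrpl44), -0.031 to 0.042 (Mrps7), -0.042 to 0.051 (Mrpl38), -0.015 to 0.019 (Mrpl10), -0.032 to 0.037 (Mrpl27), -0.057 to 0.105 (Mrpl22), -0.026 to 0.084 (Mrps15), -0.033 to 0.021 (Mrpl2), -0.082 to 0.0049 (Mrps18a), -0.068 to 0.019 (Mrps21) and -0.052 to 0.030 (Mrps2). The causes were not tested.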
